A study of Mus musculus with 6 samples.

Results

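The genes described here encode the ADAM proteases, the related ADAMTS proteases, the ADAMTS-like proteins (ADAMTSL) and ADAMDEC1. They were taken as every gene probe on the array whose name in the deposited files begins with Adam, Adamts or Adamtsl followed by a number, together with Adamdec1. This gave 57 genes and 84 probes out of 36084 gene names: 32 ADAM, 19 ADAMTS and 5 ADAMTSL genes and Adamdec1. Of these, 37 passed the filter on dim probes and were tested among 22991 genes, and 20 did not. All samples were hearts of male C57BL/6 mice aged 8 weeks in which the left anterior descending coronary artery had been tied off, and all were collected 21 days later. The antagomir group (n = 3) had received 80 mg/kg of an antagomir against miR-433, a modified antisense oligonucleotide that blocks this microRNA, through the tail vein on 3 consecutive days, and the control group (n = 3) a scrambled oligonucleotide by the same route and schedule. Both groups therefore carried an infarct, and no uninjured heart was among the samples. The study asked whether blocking miR-433 limits fibrosis after infarction. The labels do not say which region of the heart was taken or that each array came from a separate mouse, so p-values measure the spread between these samples, which may be technical.

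ADAMs are membrane-anchored proteins with a metalloprotease and a disintegrin domain, and the active ones cut growth factors, receptors and adhesion molecules off the cell surface. ADAMTS enzymes are secreted, carry thrombospondin type repeats that hold them in the matrix, and cut procollagens, large proteoglycans and other matrix proteins, while ADAMTSL proteins have the same repeats but no protease domain. In the infarcted heart, fibroblasts of the scar lay down collagens and versican, both of which are handled by ADAMTS enzymes.

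The microRNA that the antagomir was made against is shown with its seed, bases 2 to 8, in capitals, because the members' probes were searched for its match. The sequence is from RefSeq (GRCm38.p6), where the mature strand lies at chr12:109591781-109591802 on the plus strand.
mmu-miR-433-3p: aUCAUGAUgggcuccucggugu
The DNA match to these bases, ATCATGA, was in 0 of the 84 member probes and in 287 of 55661 gene probes (0.516%). A probe covers 60 bases of a transcript, so this says nothing of the rest of each transcript.

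The probes of the 3 genes that differed by the largest folds among those lower at an unadjusted p under 0.05 are shown next, as the 30 bases around the longest run of A and G, which is in capitals. That run is marked because 1 array, described below, read purine-rich probes differently from the others. The positions that follow are those of the array design (mm9) for the whole probe, and no mm9 annotation was used to place them in exons.
Adamts2, chr11:50617472-50617531 (+), 68.3% purine: tgcagtgcAGAGGAAAGAGAAGccgggaaa
Adamts2, other probe, chr11:50590188-50590247 (+), 46.7% purine: GGGcttcactattccatgaacgagcagtgt
Adamtsl2, chr2:26964005-26964064 (+), 53.3% purine: cacccactctgcAGGGGAtgctgaactgtg
Adam5, chr8:25843457-25843516 (−), 46.7% purine: ttctctcccactctAAAccatgaactaata
Adam5, other probe, chr8:25857130-25857189 (−), 65.0% purine: tgtGAGGAAcataagggacagtttggaagc
The Adamts2 probes differ in purine share, and both gave lower values in the antagomir group, as described with that gene.

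Levels are log2 processed signals minus the 75th percentile of the array, so a level of 0 is as bright as that percentile, and levels of different probes are not compared. A log2 fold change is the antagomir mean minus the control mean. At the dim end, antagomir array 3 differed from the rest: 73.6% of its gene spots were above background, against 55.2% to 58.5% on the other arrays. Among the 30 member probes below background on the 5 other arrays, 12 (40.0%) were above it on antagomir array 3, near the 43.8% of all gene probes. Of those with at least 55% purine 8 of 13 (61.5%) were above it, and of the rest 4 of 17 (23.5%), where the shares of all gene probes were 71.1% and 25.7%. Antagomir array 3 was the highest antagomir array for 19 of the 37 tested members (51.4%, against 37.2% of all genes). It was also the highest for 7 of the 7 tested members that were below background somewhere. Among all genes it was the highest for 8546 of 22991, and for 6737 of the 20296 above background on all 6 arrays. Genes below background somewhere are the difference between these counts. Control array 2 was the highest control array for 19 of the 37 tested members (51.4%, against 35.3% of all genes). It was also the highest for 15 of the 22 members with a lower antagomir mean. Picking members by that sign itself favours those with a high control array, and no matching share of all genes was taken. Control arrays 1 and 2 lay in the first row of the slide and the other 4 arrays in the second, so a fit with the row as a block sets control array 3 alone against the antagomir arrays.

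Across the tested members none passed an adjusted p of 0.05 (limma, Benjamini-Hochberg over all genes, as throughout), where 3 of all 22991 genes did (0.013%). The members nearest to it were lower with the antagomir, namely the secreted Adamts2, Adamtsl2 and Adamts1 and the sperm-surface protein gene Adam5. These 4 of 37 (10.8%) were lower at an unadjusted p under 0.05, against 4.16% of all genes, and 0 were higher, against 3.05%. The count of 4 was 2 of 37 without control array 2, where 2.41% of all genes were lower at that threshold. Without antagomir array 3 it was 2 of 37 as well (4.61% of all genes). It was 0 of 37 in the fit blocked by slide row (0.744%) and 7 of 37 without antagomir array 2 (5.53%). In 4 members (10.8%) all antagomir values lay below all control values, namely Adamts2, Adamtsl2, Adam5 and Adamts5, against 6.93% of all genes. In 1 member, Adam33 (2.7%), they lay above, against 8.78%. With 1 array fewer, more genes of any kind had groups that did not overlap. The first of these counts was 13 of 37 without antagomir array 2, against 14.6% of all genes. It was 8 of 37 without antagomir array 3 (13.3%) and 7 of 37 without control array 3 (9.99%). The second was 5 of 37 without antagomir array 2 (22.8% of all genes) and 5 of 37 without control array 3 (19.4%). Without antagomir array 1 it was 2 of 37 (13.5%).

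By sign alone, 22 of the 37 members (59.5%) had a lower antagomir mean, against 37.4% of all genes, and 15 (40.5%) a higher one, against 62.6%. Their median log2 fold change was −0.24, against 0.09 for all genes. Counting only the 30 members above background on all 6 arrays, 20 were lower and the median was −0.26, where 37.3% of all such genes were lower with a median of 0.09. The scaling moves this zero: the median of all genes was −0.03 after quantile scaling, when 28 of the 37 members were lower against 54.2% of all genes, and −0.38 after median scaling, when 32 were lower against 87.0%. By family, 8 of 18 ADAM genes were lower (median 0.14), 10 of 14 ADAMTS genes (median −0.42) and 4 of 5 ADAMTSL genes (median −0.57). The ADAM median was negative with quantile scaling (−0.23), the authors' deposited table (−0.23), median scaling (−0.33), normexp (−0.09) and the block by slide row (−0.05). It was also negative without antagomir array 3 (−0.10), control array 1 (−0.03) or control array 2 (−0.03). The ADAMTSL median was −0.09 without antagomir array 2. The ADAMTS median was −0.18 at its nearest to 0 when 1 array was left out.

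**Figure D1:**
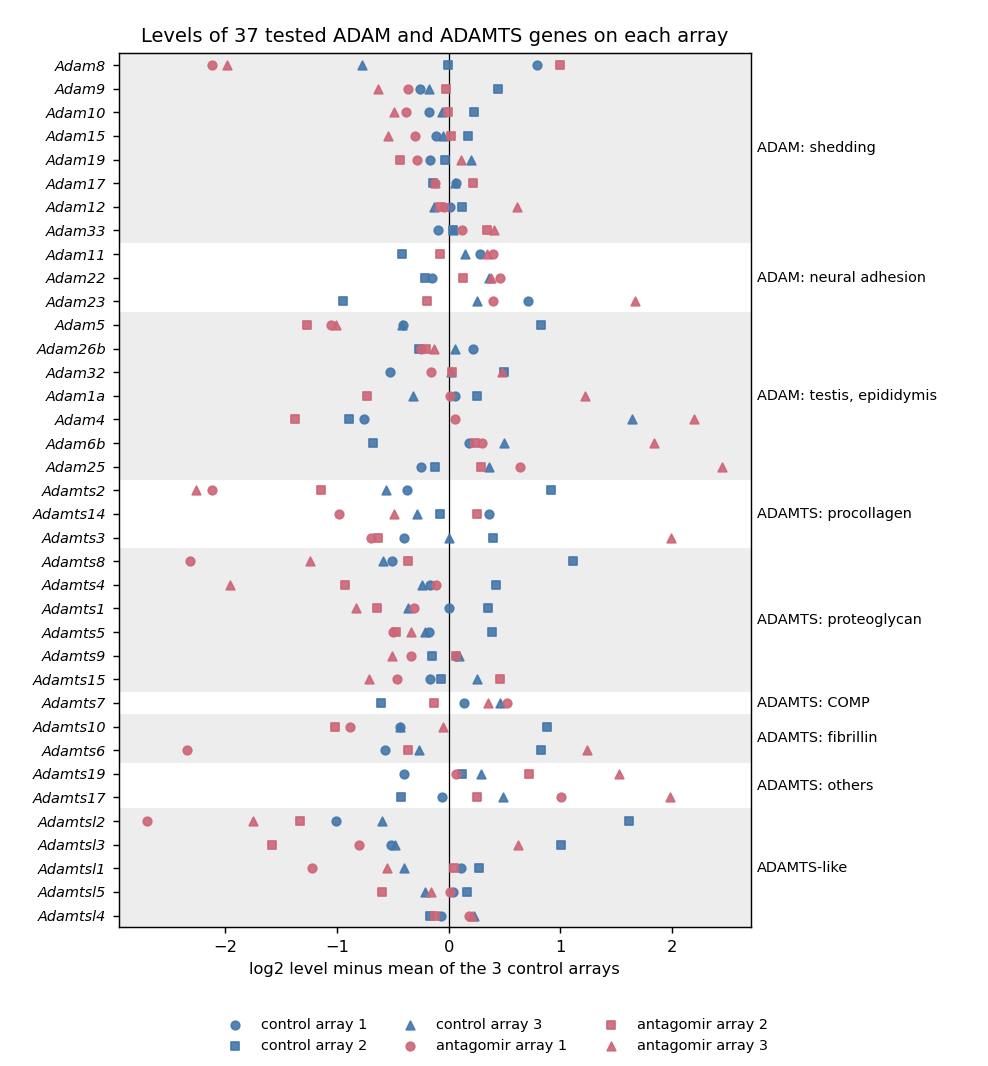
Log2 level of each of the 37 tested genes on each array, minus the mean of the 3 control arrays (x axis), grouped by subfamily (y axis); blue symbols are control and red symbols antagomir arrays, with a circle, square or triangle for array 1, 2 or 3. Blue squares (control array 2) lie farthest right among controls for 19 genes, and red triangles (antagomir array 3) farthest right among antagomir arrays for 19.

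The procollagen N-proteinases Adamts2, Adamts3 and Adamts14 remove the amino-terminal propeptide of fibrillar procollagens, a step that lets collagen fibrils form. Adamts2 had the smallest unadjusted p of all members. Its levels were 4.42, 5.71 and 4.23 in the controls and 2.67, 3.65 and 2.53 with the antagomir, listed, as for all genes here, from array 1 to array 3. Every antagomir value was below every control value, and control array 2 was the highest of the 6. The means were 4.79 ± 0.80 and 2.95 ± 0.61 (SD, n = 3 each), a log2 fold change of −1.84 (SE 0.49, 95% interval −3.03 to −0.64), or 3.58-fold lower, with an adjusted p of 0.573 in limma. On the linear scale the processed signals were 9437, 23869 and 7915 in the controls and 2292, 4546 and 2289 with the antagomir, so this probe was far above background on all arrays. The other Adamts2 probe, dimmer and with the lower purine share, gave −1.32 (SE 0.50), with signals of 58.0, 142 and 39.3 against 18.8, 21.3 and 31.8. Both probes thus had all antagomir signals below all control signals.

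The Adamts2 difference was −1.38 without control array 2, −1.63 without antagomir array 3 and −1.28 in the fit blocked by slide row. With median scaling it was −2.31 with an adjusted p of 0.0185 in limma, a setting in which 0.866% of all genes passed, and adjusted p ran from 0.193 to 1.0 over the other alternatives. Adamts14 had levels of −0.19, −0.63 and −0.83 in the controls and −1.53, −0.30 and −1.04 with the antagomir, and these ranges overlapped (log2 fold change −0.41, SE 0.35). Its difference was −0.12 without antagomir array 1, −0.23 without control array 1 and −0.74 without antagomir array 2. Adamts3, the form known mainly from cartilage and lymphatic development, had levels of −4.83, −4.03 and −4.43 against −5.13, −5.06 and −2.44. Its fold change of 0.22 (SE 0.75) rested on antagomir array 3, without which it was −0.66, and its probe was above background on 2 control arrays and 1 antagomir array.

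Markers of several cell types, fibroblasts among them, also differed between the groups. Of all genes 37.4% were lower and 62.6% higher, 6.93% lower and 8.78% higher without overlap, and 3.05% higher at an unadjusted p under 0.05. All 9 fibroblast markers measured had a negative log2 fold change, 4 of them without overlap between the groups, and the sum of their scaled signals (1 being the 75th percentile) ran from 622 to 722 in the controls and from 359 to 520 with the antagomir, none of them below background on any array. Within that list Col1a1, Col3a1, Postn and Lum accounted for the 4. Dcn, another fibroblast gene, had −0.00 (SE 0.17) and made the largest part of each sum. The 10 cardiomyocyte markers were all higher, with a median of 0.2 against 0.09 for all genes. In 4 of the 10 the groups did not overlap (40.0%, against 8.78% of all genes), and the sums were 3410 to 3990 and 4050 to 4430. Among 7 genes of smooth muscle cells and pericytes, 6 had a lower mean, 4 without overlap, with sums of 108 to 166 and 79.9 to 105. Of 7 endothelial markers 6 were lower, Emcn (−0.58, SE 0.23) and Erg (−0.61, SE 0.17) without overlap. Their sums were 41.0 to 46.0 and 34.5 to 43.6. Of 5 neutrophil markers tested 4 were higher, Camp (1.47, SE 0.87) without overlap, with sums of 112 to 139 and 111 to 137. Of 8 macrophage markers 7 were lower, and of 7 lymphocyte markers tested 4 were higher, Nkg7 alone without overlap. All 4 adipocyte markers tested were higher, 1 of them at an unadjusted p under 0.05, but the groups overlapped in each of the 4. Their sums ran from 4.99 to 7.34 in the controls and from 7.81 to 9.64 with the antagomir. Most of each sum came from Pparg (0.14, SE 0.19), while Lep was not above background on any array. Sums over 4 atrial markers ran from 393 to 632 in the controls and from 33 to 814 with the antagomir. Of these Nppa, which made the largest part of each sum, was at −1.71 (SE 0.99). The others, Sln (5.30, SE 2.29), Myl7 (5.14, SE 2.44) and Myl4 (3.10, SE 1.57), were higher. Sln had levels of −4.01, −2.14 and 0.53 in the controls and −1.46, 5.10 and 6.63 with the antagomir, so antagomir arrays 2 and 3 were far above the other 4. The part of these shifts in the protease values was not tested, and in a heart sample fewer cells of a type and less RNA per cell cannot be told apart.

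The proteoglycan-cleaving ADAMTS enzymes cut versican and aggrecan, large proteoglycans that bind hyaluronan. Of 7 such genes 6 were tested, and all 6 had lower antagomir means (median −0.51, range −1.31 to −0.24), against 37.4% of all genes. Only Adamts1 reached an unadjusted p under 0.05, at which 4.16% of all genes were lower. Only Adamts5 had groups that did not overlap, where 6.93% of all genes were lower without overlap. Adamts1, which is induced by injury and cuts versican, had levels of 2.46, 2.81 and 2.10 in the controls and 2.15, 1.82 and 1.63 with the antagomir. Antagomir array 1 lay just above the lowest control, and the difference was −0.59 (SE 0.24, 95% interval −1.18 to −0.01, adjusted p = 0.687 in limma). Leaving out control array 2 gave −0.42, and blocking by slide row gave −0.23. Adamts5, a main aggrecan-cleaving enzyme of cartilage, had −0.83, −0.26 and −0.86 against −1.15, −1.12 and −0.99. The gap between the groups was small, control array 2 was the highest value, and the difference was −0.44 (SE 0.20, 95% interval −0.93 to 0.06, adjusted p = 0.691 in limma) and −0.24 without that array. A second Adamts5 probe gave −0.05 (SE 0.34).

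Adamts4, the other classic aggrecan-cleaving enzyme, had levels of 0.09, 0.68 and 0.02 in the controls and 0.15, −0.67 and −1.70 with the antagomir. The antagomir arrays spread widely, with array 1 among the controls and array 3 lowest, and the difference of −1.01 (SE 0.48, 95% interval −2.19 to 0.17) was −0.53 without antagomir array 3. Its second probe gave −1.12 (SE 0.76). Adamts8 had −2.32, −0.70 and −2.40 against −4.13, −2.17 and −3.05, a difference of −1.31 (SE 0.66) that was −0.76 without control array 2. Its second probe, above background on 2 control arrays and 1 antagomir array, gave 0.87 (SE 0.75), so the probes of this gene disagreed in sign. Adamts9 had 1.40, 1.18 and 1.42 against 0.99, 1.40 and 0.82 (−0.27, SE 0.19), and Adamts15 had 1.06, 1.16 and 1.48 against 0.77, 1.69 and 0.52 (−0.24, SE 0.33). In both, antagomir array 2 lay among or above the controls. Adamts20 was not above background on any array.

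**Figure D2:**
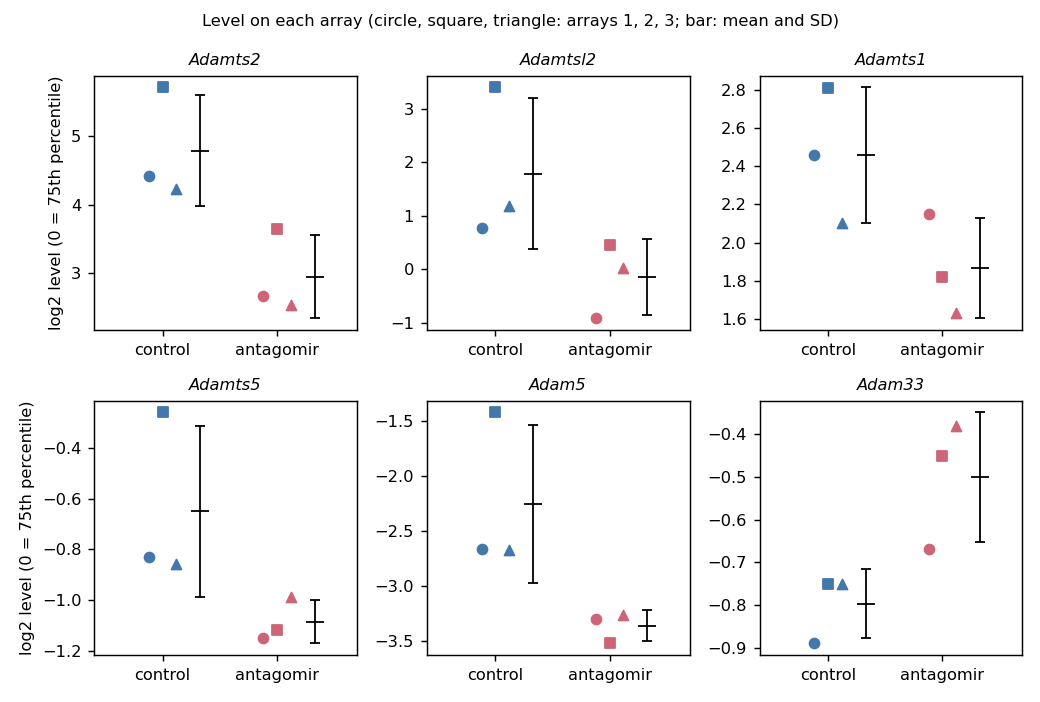
Log2 level (y axis, 0 being the 75th percentile of the array) of Adamts2, Adamtsl2, Adamts1, Adamts5, Adam5 and Adam33 on the 3 control arrays (blue) and the 3 antagomir arrays (red), with the mean and SD of each group as a bar. The groups do not overlap in 5 of these genes, Adamts1 being the exception, and control array 2 (blue square) is the highest value in all but Adam33.

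The ADAMTSL proteins bind fibrillin microfibrils and have no protease activity. Adamtsl2, whose human form is mutated in geleophysic dysplasia, a disorder of the skeleton and the heart valves, had the largest log2 fold change of all tested members. Its levels were 0.77, 3.40 and 1.18 in the controls and −0.92, 0.45 and 0.03 with the antagomir. The groups did not overlap, and control array 2 was far above the other 2 controls. The means were 1.78 ± 1.42 and −0.15 ± 0.70 (SD, n = 3 each), a difference of −1.93 (SE 0.75, 95% interval −3.77 to −0.09, adjusted p = 0.679 in limma), or 3.81-fold lower. Leaving out control array 2 gave −1.12 and blocking by slide row −1.33, and with median scaling it was −2.40 with an adjusted p of 0.0112 in limma, which ran from 0.379 to 1.0 over the other alternatives. Adamtsl1 (−0.57), Adamtsl3 (−0.59) and Adamtsl5 (−0.25) were lower too, with overlapping groups. Without control array 2 Adamtsl3 was −0.08 and without antagomir array 2 it was −0.09, while Adamtsl1 was −0.25 without antagomir array 1 and Adamtsl5 −0.07 without antagomir array 2. The second Adamtsl5 probe gave 0.08. Adamtsl4, which is needed for the fibres that hold the lens, had 0.09 and was −0.38 with median scaling.

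Adamts10 (−0.65) and Adamts6 (−0.48), which also act on fibrillin fibres, had lower antagomir means with overlapping groups. Without control array 2 they were −0.21 and −0.07, and Adamts6 was at 0.44 without antagomir array 1. Adamts7, which cuts cartilage oligomeric matrix protein, had 0.25 and was −0.22 with median scaling and −0.06 without control array 2, while Adamts12, its closest relative, did not pass the filter. Adamts17 (1.08) and Adamts19 (0.77) were higher, but each was below background on at least 1 array and highest on antagomir array 3. The Adamts17 probe was above background on 2 control and 3 antagomir arrays, and the Adamts19 probe on 1 and 2. The second Adamts17 probe gave −0.55 (SE 0.61), and Adamts19 was −0.20 with quantile scaling.

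The ADAMs known as sheddases of somatic tissues gave no member near the threshold. Of 9 such genes 8 were tested, 6 with lower and 2 with higher antagomir means (median −0.24, range −1.04 to 0.29). None reached an unadjusted p under 0.05. Of all genes 37.4% were lower and 62.6% higher, and 4.16% and 3.05% were so at that threshold. Adam10, the main enzyme that cuts Notch at the cell surface, had levels of 2.67, 3.08 and 2.79 in the controls and 2.47, 2.84 and 2.36 with the antagomir. The groups overlapped, and the 95% interval of its difference (−0.29, SE 0.19) ran from −0.76 to 0.19. Adam17, which sheds tumour necrosis factor and several ligands of the EGF receptor, had −1.83, −2.04 and −1.84 against −2.02, −1.68 and −2.02. Its difference was −0.00 (SE 0.16), with an interval of −0.39 to 0.38 that holds for this probe and scaling. With quantile scaling and with the authors' table the difference was −0.27. With median scaling, where the median of all genes was −0.38, it was −0.47. The second Adam17 probe, which overlaps the first on the genome, gave −0.37 (SE 0.67).

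Adam9, a widely expressed sheddase, had 3.51, 4.21 and 3.59 in the controls against 3.41, 3.75 and 3.14 with the antagomir (−0.33, SE 0.26). Adam15, found in endothelium and muscle, had 5.45, 5.73 and 5.51 against 5.26, 5.58 and 5.02 (−0.28, SE 0.19). Adam19, needed for the developing heart valves, had 2.19, 2.33 and 2.56 against 2.08, 1.92 and 2.47 (−0.20, SE 0.20). In each of these 3 genes the lowest value was an antagomir array and the highest a control array, and the groups overlapped. Adam12, which is raised in growing muscle and in fibrotic tissue, had −3.15, −3.04 and −3.29 against −3.20, −3.24 and −2.55 (0.16, SE 0.22). Its higher mean rested on antagomir array 3, without which it was −0.06, and it was −0.34 with quantile scaling. Adam33, best known from airway smooth muscle, had −0.89, −0.75 and −0.75 against −0.67, −0.45 and −0.38, higher on every antagomir array. The difference was 0.29 (SE 0.14, 95% interval −0.06 to 0.64, adjusted p = 0.691 in limma), a second probe gave 0.62 (SE 0.32), and with median scaling it was −0.18. Adam8, a protease of leukocytes, spread widely within both groups, from −0.79 to 0.78 in the controls and from −2.13 to 0.99 with the antagomir (−1.04, SE 0.92).

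**Figure D3:**
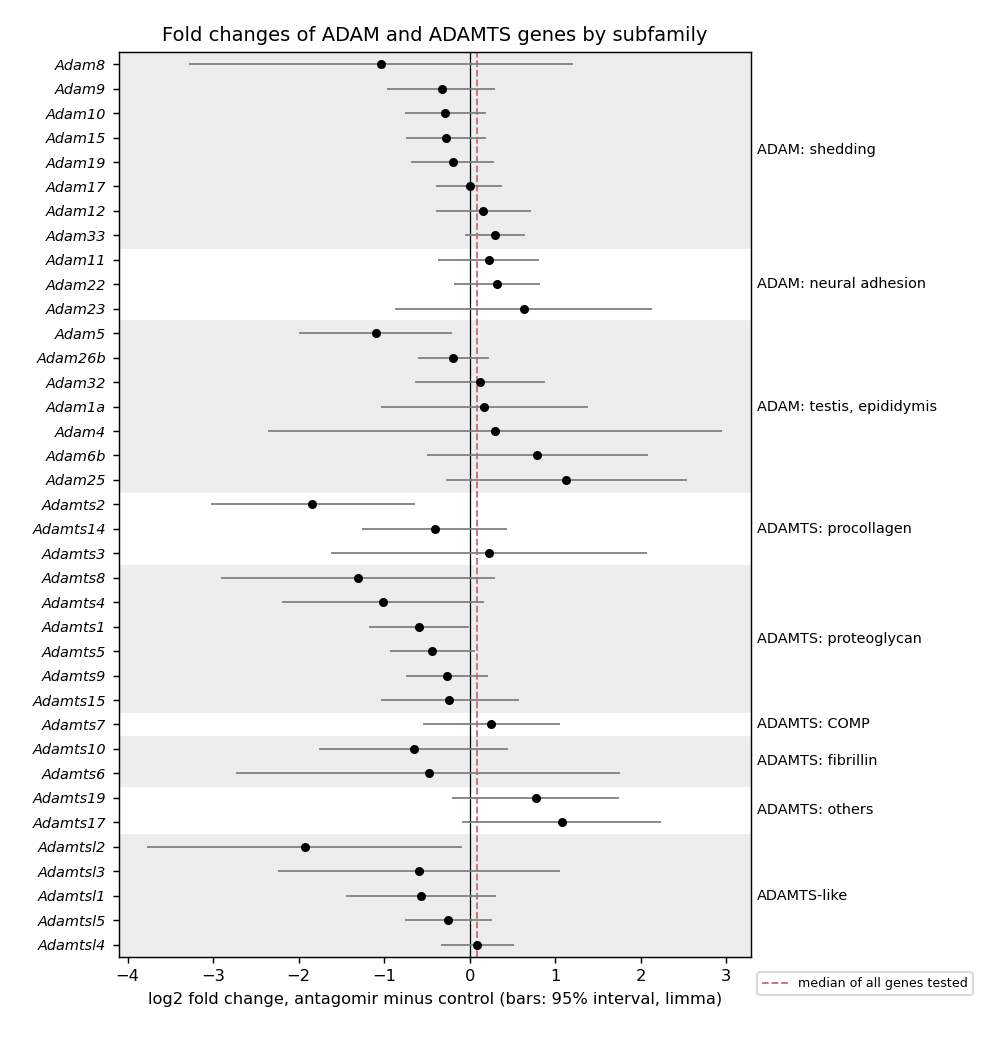
Log2 fold change of each tested gene (x axis, antagomir minus control; bars are 95% intervals from limma) by subfamily (y axis), with a dashed line at the median of all genes tested (0.09). The intervals of Adamts2, Adamtsl2, Adam5 and Adamts1 lie below 0, and no interval lies above 0.

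Adam11, Adam22 and Adam23 lack protease activity and act as adhesion proteins and LGI receptors in the nervous system. All 3 were higher (median 0.32, range 0.22 to 0.63), with overlapping groups, where 62.6% of all genes were higher. With median scaling Adam11 was −0.25 and Adam22 −0.15, and with array weights Adam23 was −0.02.

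Of the 20 ADAM genes known mainly from testis and epididymis, 7 were tested, 2 with lower and 5 with higher antagomir means (median 0.17). Of all genes 37.4% were lower and 62.6% higher. Adam5, a sperm-surface ADAM, was the only one of the 7 to reach an unadjusted p under 0.05, at which 4.16% of all genes were lower. Its levels were −2.66, −1.42 and −2.67 in the controls and −3.30, −3.52 and −3.26 with the antagomir, well below the 75th percentile of each array. The groups did not overlap and control array 2 again stood above the rest. The difference was −1.10 (SE 0.36, 95% interval −2.0 to −0.21, adjusted p = 0.653 in limma) and −0.69 without control array 2, and the second probe, the purine-rich one printed above, gave −0.86 (SE 0.73). The second probe had signals of 40.5, 93.0 and 37.2 in the controls and 10.2, 21.7 and 64.4 with the antagomir, and its highest antagomir value was on array 3. Adam26b was at −0.20. The 5 higher genes were Adam25 (1.13), Adam6b (0.79), Adam4 (0.29), Adam1a (0.17) and Adam32 (0.12), and their groups overlapped. The Adam25 probe was above background on 1 control array and 3 antagomir arrays, and the Adam4 probe on 1 and 2. With normexp Adam25 was 0.15. Antagomir array 3 was the highest antagomir array in each of the 5 higher genes, and without it Adam25 was 0.47. Adam4 was −0.66 without that array, Adam1a −0.36 and Adam32 −0.06, and these 3 were below 0 with quantile scaling as well (−0.10, −0.24 and −0.04).

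The 20 genes that did not pass the filter fell into 3 classes. On no array were Adam1b, Adam29, Adam3, Adam30, Adam34, Adam6a, Adam7, Adamts13 and Adamts20 above background, 9 genes in all, of which Adamts13 encodes the plasma enzyme that cuts von Willebrand factor and is made mainly in liver. On antagomir array 3 alone were 6 genes above it: Adam18, Adam24, Adam26a, Adam28, Adam39 and Adamdec1. The other 5, Adam2, Adam21, Adamts12, Adamts16 and Adamts18, were above background on at most 2 of the other arrays.

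The second class includes genes of immune cells, Adam28 of lymphocytes and Adamdec1 of macrophages. Their probes are shown beside those of Adam29 and Adam30, seen on no array, with the longest run of A and G in capitals.
Adam28, 63.3% purine: agtgtagaccccAAAAGGtgaaggatgttc
Adamdec1, 65.0% purine: tcctggatgtGGGAGAAGAGtgtgactgtg
Adamdec1, other probe, 51.7% purine: cttagtggaaatGGAAAAGtaaggcttcat
Adam29, 45.0% purine: cccaatatGAAAGAtcacagtactattcac
Adam30, 43.3% purine: cacgcatcttatAAAAtgtcctattgtctg
On antagomir array 3 the processed signal was 119 for Adam28 and 112 for the first Adamdec1 probe. The median over all 30 such dim probes was 29.3 there, against 3.06 to 3.22 on the 5 other arrays. The summed macrophage markers were 47.5 on it, the lowest of the 6 arrays, 61.0 and 92.5 on antagomir arrays 1 and 2 and 69.3 to 74.0 on the controls. The lymphocyte markers summed to 5.35 on it, against 4.65 and 17.9 on antagomir arrays 1 and 2 and 4.15 to 4.79 on the controls. The part of these cells in the signals was not tested. No level is given here for these 6 genes.

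**Figure D4:**
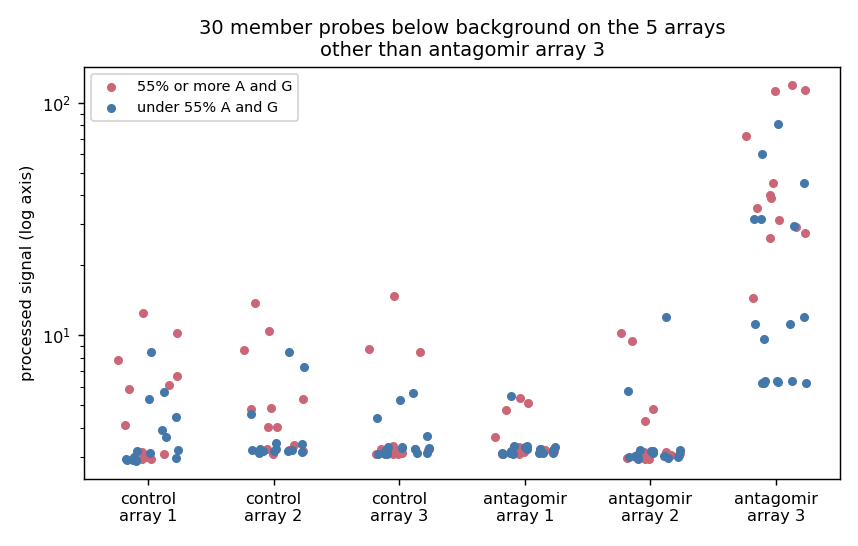
Processed signal (y axis, log scale) on each array (x axis) of the 30 member probes that were below background on the 5 arrays other than antagomir array 3; red points are probes with 55% or more A and G, blue points the rest. The median was 29.3 on antagomir array 3 and 3.06 to 3.22 on the others.

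The substrates, inhibitors and partners of these enzymes were taken as lists of genes, and none of their members passed an adjusted p of 0.05 in limma. For the list counts here and below, 37.4% of all genes were lower and 4.16% lower at an unadjusted p under 0.05. Without overlap, 6.93% of all genes were lower and 8.78% higher. The fibrillar procollagens, the substrates of Adamts2, had the lowest median: all 5 tested of 6 were lower without overlap and at an unadjusted p under 0.05, with a median of −2.35. Among them were Col3a1 (−3.33, SE 0.53), Col1a1 (−2.82, SE 0.50) and Col1a2 (−2.17, SE 0.37). The fibrillins, the latent TGF-beta binding proteins and relatives of the ADAMTSL genes were lower in 7 of 8 cases, 6 at an unadjusted p under 0.05, with a median of −0.87. These included Ltbp2 (−4.69, SE 0.82), Fbn2 (−1.10, SE 0.26) and Ltbp3 (−1.08, SE 0.26). Of the hyaluronan-binding proteoglycans and link proteins 3 of 8 were tested. Vcan, which encodes versican, was lower without overlap (−1.50, SE 0.49), Acan was at −1.30 (SE 0.70) and Hapln3 at 0.18 (SE 0.22). The members and these substrates were measured on the same arrays, so they share the same samples and markers.

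The inhibitors were lower in 4 of 5 tested cases of 6 (median −0.81), with Timp2 (−0.81, SE 0.24) and Reck (−0.94, SE 0.35) at an unadjusted p under 0.05 and Timp3, the main inhibitor of ADAM and ADAMTS enzymes, at −0.41 (SE 0.18). Of the 4 proprotein convertases, which cut off the prodomains, 2 were lower and 2 higher (median −0.05), with Pcsk5 at −1.05 (SE 0.29), Furin at 0.31 (SE 0.20) and Pcsk6 at −0.16. The iRhoms and TspanC8 tetraspanins, which carry Adam17 and Adam10 to the surface, had a median of −0.31 over 7 tested of 8 genes, 5 of them lower. Tspan5 (−0.46, SE 0.18) and Tspan14 (−0.31, SE 0.13) were lower at an unadjusted p under 0.05, and Tspan17 was at −0.70 (SE 0.30). Tspan33, named after its value was seen, had the largest fold change of this list and was higher without overlap (0.82, SE 0.36).

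The EGF receptor ligands were mixed, with 2 of 5 tested lower and a median of 0.32. Ereg was lower without overlap (−2.85, SE 0.81), its probe being above background on 3 control arrays but on only 1 antagomir array. Btc (0.37, SE 0.17) and Egf (0.88, SE 0.44) were higher without overlap, 2 of 5 (40.0%) against 8.78% of all genes. Notch receptors and ligands had a median of −0.10 over 8 genes, 3 of them lower at an unadjusted p under 0.05, namely Jag1 (−0.53, SE 0.19), Notch3 (−0.51, SE 0.20) and Notch2 (−0.49, SE 0.20). Of 11 other shed proteins tested 10 were lower (median −0.25), led by Lrp1 (−0.80, SE 0.25), Cx3cl1 (−1.13, SE 0.39) and App (−0.54, SE 0.24).

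**Figure D5:**
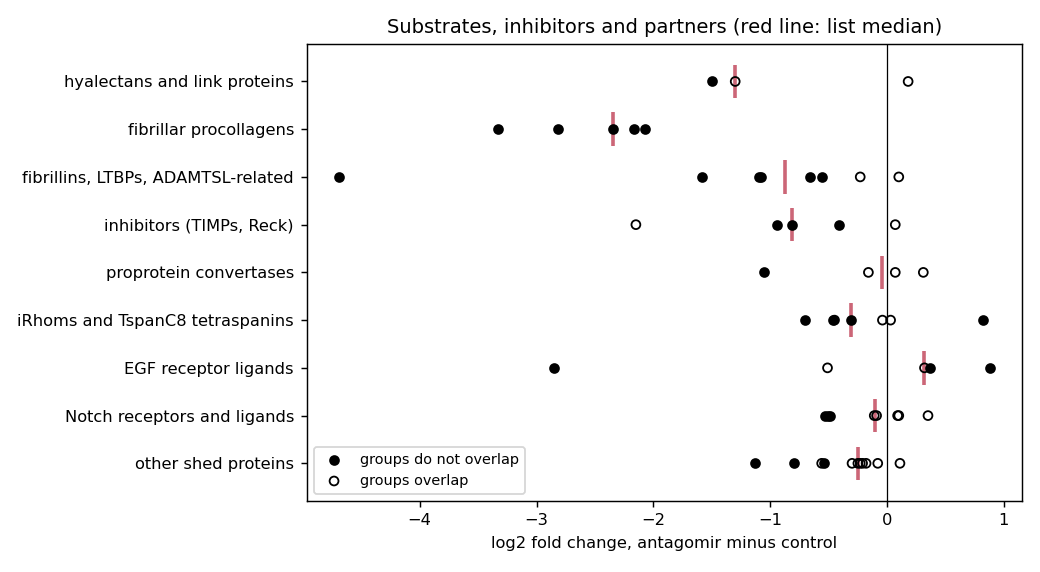
Log2 fold change (x axis, antagomir minus control) of the tested genes in each list of substrates, inhibitors and partners (y axis); filled points are genes whose groups do not overlap and red bars are list medians. Medians ran from −2.35 for the fibrillar procollagens to 0.32 for the EGF receptor ligands.

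The promoters of the members with the largest differences, Adamts2 and Adamtsl2, are shown as the 250 bases before the start of each gene in RefSeq (GRCm38.p6), with the motif matches in capitals, because these genes lay at the low end of their families. The motifs searched on both strands were the TATA box (TATAAA), the GC box (GGGCGG), the AP-1 site (TGANTCA) and the TEAD site (GGAATG).
Adamts2, chr11:50601835-50602084 (+): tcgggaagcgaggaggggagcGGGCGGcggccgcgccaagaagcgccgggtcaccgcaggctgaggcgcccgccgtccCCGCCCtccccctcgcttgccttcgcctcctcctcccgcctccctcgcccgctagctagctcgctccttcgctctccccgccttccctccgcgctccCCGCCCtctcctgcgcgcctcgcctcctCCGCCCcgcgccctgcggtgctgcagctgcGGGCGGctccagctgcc
Adamtsl2, chr2:27079129-27079378 (+): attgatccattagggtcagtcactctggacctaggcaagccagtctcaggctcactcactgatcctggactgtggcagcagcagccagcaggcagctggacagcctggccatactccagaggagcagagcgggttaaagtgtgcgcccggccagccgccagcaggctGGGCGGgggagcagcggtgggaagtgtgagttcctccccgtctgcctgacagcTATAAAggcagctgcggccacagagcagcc
The Adamts2 window was 78.0% G and C and held 5 GC boxes and no match to the other motifs. The Adamtsl2 window was 62.8% G and C and held 1 GC box and 1 TATA box. A GC box was in 15 of 32 windows of the 30 member genes found in the table (46.9%) and in 32.7% of all 32851 windows of the same length, a TATA box in 15.6% and 12.4%, an AP-1 match in 9.38% and 6.75%, and a TEAD match in 6.25% and 12.6%. These matches describe letters only.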

How the data were processed

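Cy3-labelled cRNA of 6 heart samples was measured on 1-colour Agilent arrays. The authors used Agilent Feature Extraction 10.7.1.1, per the submitters' processing notes, and its deposited files hold processed signals, mean signals and local backgrounds as intensities, together with other values, which are 0 or 1 flags for each spot. The authors' deposited table adds normalised values in log2 units whose sorted columns differ by at most 0.00143, as after quantile normalisation; how they were made is not given in the sources used here.

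Control and outlier spots were left out and spots of a probe averaged. Levels are log2 processed signal minus the 75th percentile of the array. A probe was kept when well above background on 3 or more arrays (31716 probes), the brightest stood for its gene, and 22991 genes were fitted with limma 3.58.1 in R 4.3.3 (lmFit, eBayes, both groups, no covariate) with Benjamini-Hochberg adjustment. Values of second probes are from a second limma fit over probes. The script was tested on simulated data. Groups were taken from the labels, and the number of arrays limits the precision. No spot was saturated.

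The members and lists were chosen with earlier results of these data known. Named with their values on each array were members at an unadjusted p under 0.05 or without overlap, the procollagen N-proteinases, 6 proteoglycan-cleaving enzymes and 6 sheddases; the others are given by fold change, and each list by its 3 smallest p. Same-numbered arrays did not deviate together throughout (correlations 0.222, 0.142 and −0.049), so the numbers were not used as pairs. The alternatives were other scalings, background correction, filters, probe rules, weights, blocks and leaving out each array.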

Additional observations from a re-analysis of the deposited data

How the results depend on the processing

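No member passed an adjusted p of 0.05 under any alternative run except median scaling, with 2 (Adamts2 and Adamtsl2). The counts of members in this paragraph are out of 37, or out of 57 without the filter on dim probes. Members lower at an unadjusted p under 0.05 (4) were 9 with array weights, 2 without the filter on dim probes, 0 with the slide row as a block and 2 to 7 when 1 array was left out, and the shares of all genes were 5.96%, 1.97%, 0.744% and 2.41% to 5.53%. Members higher at that threshold (0) were 2 with array weights, 1 with the authors' table, 1 with quantile scaling and 0 to 2 with 1 array left out, against 5.97%, 1.76%, 1.77% and 1.55% to 5.21% of all genes. With the replicate number as a block, which no source supports as a pairing, 5 were lower and 4 higher at that threshold, against 4.84% and 5.04% of all genes. Members lower without overlap (4) were 2 with the mean of a gene's probes, 7 with median scaling and 4 to 13 with 1 array left out, against 6.26%, 10.3% and 7.99% to 14.6% of all genes. Members higher without overlap (1) were 0 with the mean of probes, 0 with median scaling, 9 of 57 without the filter and 1 to 5 with 1 array left out, against 9.04%, 0.831%, 21.6% and 10.2% to 22.8% of all genes.

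The ADAM median was −0.23 with the authors' table, −0.33 with median scaling, −0.09 with normexp, −0.23 with quantile scaling and −0.10 to 0.22 with 1 array left out. The ADAMTS median was −0.89 with median scaling and −0.55 to −0.18 with 1 array left out. The ADAMTSL median was −1.04 with median scaling, −0.14 with the slide row and −0.77 to −0.09 with 1 array left out.

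Single genes changed sign as follows. With the authors' table, Adam12 was −0.34, Adam1a −0.24, Adam32 −0.04, Adam4 −0.10, Adamts19 −0.20 and Adamts3 −0.23, and quantile scaling gave the same rounded values. With normexp they were −0.10, −0.08, −0.04, −0.04, −0.02 and −0.02. With median scaling, Adam11 was −0.25, Adam12 −0.31, Adam1a −0.30, Adam22 −0.15, Adam32 −0.35, Adam33 −0.18, Adam4 −0.18, Adamts3 −0.25, Adamts7 −0.22 and Adamtsl4 −0.38. With the slide row, Adam22 was −0.04, Adam4 −1.35, Adamts7 −0.21 and Adamtsl4 −0.14, and with array weights Adam23 was −0.02. With 1 array left out, Adam12 ran from −0.06 to 0.28, Adam17 from −0.11 to 0.05, Adam1a from −0.36 to 0.62, Adam32 from −0.14 to 0.37, Adam4 from −0.66 to 1.13, Adamts3 from −0.66 to 0.68, Adamts6 from −1.35 to 0.44 and Adamts7 from −0.06 to 0.48. The cause was not tested.

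Dim probes limit the members below background on some array, for all 7 of which antagomir array 3 was the highest antagomir array. Among all genes that array was the highest for 8546 of 22991, and for 6737 of the 20296 above background on all 6 arrays. Without antagomir array 3 Adam4 and Adamts3 changed sign (both −0.66), while Adam25 (0.47), Adamts17 (0.63) and Adamts19 (0.39) were smaller but stayed above 0. With 3 arrays a group and adjustment over 22991 genes, intervals spanned several log2 units for the variable members.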
